A study of Mus musculus with 8 samples.

Results

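Antigen presentation by major histocompatibility complex (MHC) class I was examined through 10 genes in mouse epididymal fat, the visceral depot attached to the epididymis: the class I heavy chains H2-K1 and H2-D1, the light chain B2m, the peptide transporter subunits Tap1 and Tap2, the immunoproteasome subunits Psmb8, Psmb9 and Psmb10, and the proteasome activator subunits Psme1 and Psme2. Every probe set whose platform annotation gave 1 of these symbols and no other was taken, whatever its signal. This gave 15 probe sets for 9 of the 10 genes, 10 on chip A and 5 on chip B, among 13069 probe sets and 6137 named genes in all. Psme2 appeared only in 1 probe set annotated to another symbol as well, and is counted as absent.

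The transcripts were measured with Affymetrix arrays in 4 mouse lines, DU6, DU6i, DUKs and DBA. For each line the RNA of 20 males aged 42 days was pooled, and the pool was hybridised to 1 chip A and 1 chip B array. From general knowledge and not from the labels, DU6 is an outbred line selected for high body weight, DU6i is an inbred line derived from DU6, DUKs is an unselected outbred control and DBA is an inbred strain. The labels name no treatment and no allele, and give no substrain of DBA. In the title of the series the 2 DU6 lines are set against the other lines, DUKs and DBA. No line has a second pool, so a difference between 2 lines has no replicate error and no test, and the small number of arrays limits the precision.

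Class I molecules carry short peptides from inside the cell to its surface, where cytotoxic T cells read them. The peptides are cut by the proteasome, pumped into the endoplasmic reticulum by the Tap1-Tap2 transporter and loaded on a heavy chain paired with B2m. Interferon-gamma induces the immunoproteasome, in which Psmb8, Psmb9 and Psmb10 take the places of the constitutive catalytic subunits Psmb5, Psmb6 and Psmb7, and Psme1 and Psme2 form a ring that opens the core. In adipose tissue, class I is found on adipocytes, vessel cells and immune cells alike, and a pool of whole fat cannot tell fewer cells of a type from less RNA per cell.

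The genes lie in few places of the genome. In the RefSeq annotation, Psmb9, Tap1, Psmb8 and Tap2 follow each other on chromosome 17, within the MHC, without another protein-coding gene between them. Among protein-coding genes H2-DMb1 comes before and H2-Ob after them. H2-K1 and H2-D1 are on the same chromosome, B2m on chromosome 2, Psmb10 on chromosome 8, and Psme1 and Psme2 on chromosome 14, with Emc9 between them. Promoter windows of 300 bases, 250 before and 50 after an annotated start, were available from RefSeq (build GRCm38.p6) for 9 of the 10 genes. The windows of 5 are shown, those of the heavy chains, of B2m, and of the neighbours Tap1 and Psmb8. All are written 5′ to 3′ on the gene's strand, and capitals mark every match to the 4 motifs described after them. H2-K1 is at chr17:34000298-34000597 on the minus strand (the first of its annotated starts), H2-D1 at chr17:35262844-35263143 on the plus strand, B2m at chr2:122147437-122147736 on the plus strand, Tap1 at chr17:34187306-34187605 on the plus strand and Psmb8 at chr17:34197945-34198244 on the plus strand.
H2-K1: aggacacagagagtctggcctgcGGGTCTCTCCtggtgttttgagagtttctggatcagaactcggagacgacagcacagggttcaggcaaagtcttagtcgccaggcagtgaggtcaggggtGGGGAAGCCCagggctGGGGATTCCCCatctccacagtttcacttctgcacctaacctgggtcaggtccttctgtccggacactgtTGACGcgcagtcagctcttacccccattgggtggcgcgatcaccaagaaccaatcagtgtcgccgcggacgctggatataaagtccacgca
H2-D1: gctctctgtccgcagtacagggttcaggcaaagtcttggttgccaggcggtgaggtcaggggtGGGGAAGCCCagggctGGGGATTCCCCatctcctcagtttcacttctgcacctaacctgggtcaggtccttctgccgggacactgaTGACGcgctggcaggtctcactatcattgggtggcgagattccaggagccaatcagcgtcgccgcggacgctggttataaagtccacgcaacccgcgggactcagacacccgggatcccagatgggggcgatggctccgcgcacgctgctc
B2m: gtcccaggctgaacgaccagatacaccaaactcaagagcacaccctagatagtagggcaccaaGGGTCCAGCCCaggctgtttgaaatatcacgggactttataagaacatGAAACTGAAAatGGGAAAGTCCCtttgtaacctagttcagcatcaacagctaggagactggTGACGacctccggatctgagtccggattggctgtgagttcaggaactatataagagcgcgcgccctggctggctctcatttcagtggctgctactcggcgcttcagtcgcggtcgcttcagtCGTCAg
Tap1: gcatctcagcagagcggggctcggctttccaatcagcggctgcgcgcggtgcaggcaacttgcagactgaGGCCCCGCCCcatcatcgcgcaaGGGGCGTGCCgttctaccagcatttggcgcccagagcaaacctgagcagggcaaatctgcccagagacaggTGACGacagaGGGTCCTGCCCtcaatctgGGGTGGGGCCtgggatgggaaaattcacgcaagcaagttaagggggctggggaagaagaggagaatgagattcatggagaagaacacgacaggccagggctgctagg
Psmb8: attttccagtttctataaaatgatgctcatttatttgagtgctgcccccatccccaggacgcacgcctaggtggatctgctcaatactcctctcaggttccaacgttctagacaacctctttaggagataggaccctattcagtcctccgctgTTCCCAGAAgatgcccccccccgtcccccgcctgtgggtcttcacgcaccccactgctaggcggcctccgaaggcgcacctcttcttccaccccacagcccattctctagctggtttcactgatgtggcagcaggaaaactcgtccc

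The 4 motifs were searched on both strands, and matches that overlap were joined. The core of the interferon-stimulated response element (GAAA, any 2 bases, GAAA) was in the windows of B2m and Psme1, and in 3.44% of all 32851 promoter windows. TTCNNNGAA, the gamma-activated sequence bound by STAT factors, was in the Psmb8 window alone among the members, as TTCCCAGAA starting 97 bases before the start, and in 8.30% of all windows. The NF-kB type motif (GGG, any 5 bases, CC) was in the windows of H2-K1, H2-D1, B2m, Tap1, Psmb9, Psme1 and Psme2, but also in 50.8% of all windows. TGACG, as in the X2 box of MHC promoters, was in those of H2-K1, H2-D1, B2m, Tap1, Psmb9 and Psme2, and in 20.8% of all windows. H2-K1 and H2-D1 share the run GGGGATTCCCC, and 211 of the 239 bases that align between their windows are identical (88.3%). Tap1 and Psmb9 are transcribed away from each other, and 275 bases of their windows are the same DNA on opposite strands. The Psmb10 window held none of the 4 motifs. These matches describe letters and not bound sites. Only exact matches were counted, so a window without a match may still hold a variant of a motif, those of H2-K1 and H2-D1 included.

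Signals are the authors' linear intensities, scaled on each array. A floor was set for each chip from the sizes of its negative signals, 1022.8 on chip A and 2258.25 on chip B, and lines were compared only within a chip. Of the 15 probe sets, 12 were above the floor in all 4 lines, 2 in exactly 1 line and 1, that of Tap2, in none. All 7 adipocyte markers with a probe set were above the floor in every line. Transcripts of the epididymis, the accessory glands and male germ cells were also present: the signals above the floor of the 8 germ cell markers summed to 56255 in DU6, 43054.8 in DU6i, 253885 in DUKs and 107609 in DBA. The arrays also differed in range. The 99th percentile of signal on chip A was 18809.5 in DU6, 34792.7 in DU6i, 27551.9 in DUKs and 23450.1 in DBA, and on chip B 49489.2, 34691.7, 52203.4 and 33621.5 in the same order of lines. The middle probe set of the control transcript pyruvate carboxylase had 15.3% of the 3′ signal in DU6, 54.5% in DU6i, 53.9% in DUKs and 19.5% in DBA on chip A. On chip B these shares were 12.7%, 45.3%, 55.6% and 14.3%, so that DU6 and DBA were low and DU6i and DUKs high on both chips.

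**Figure D1:**
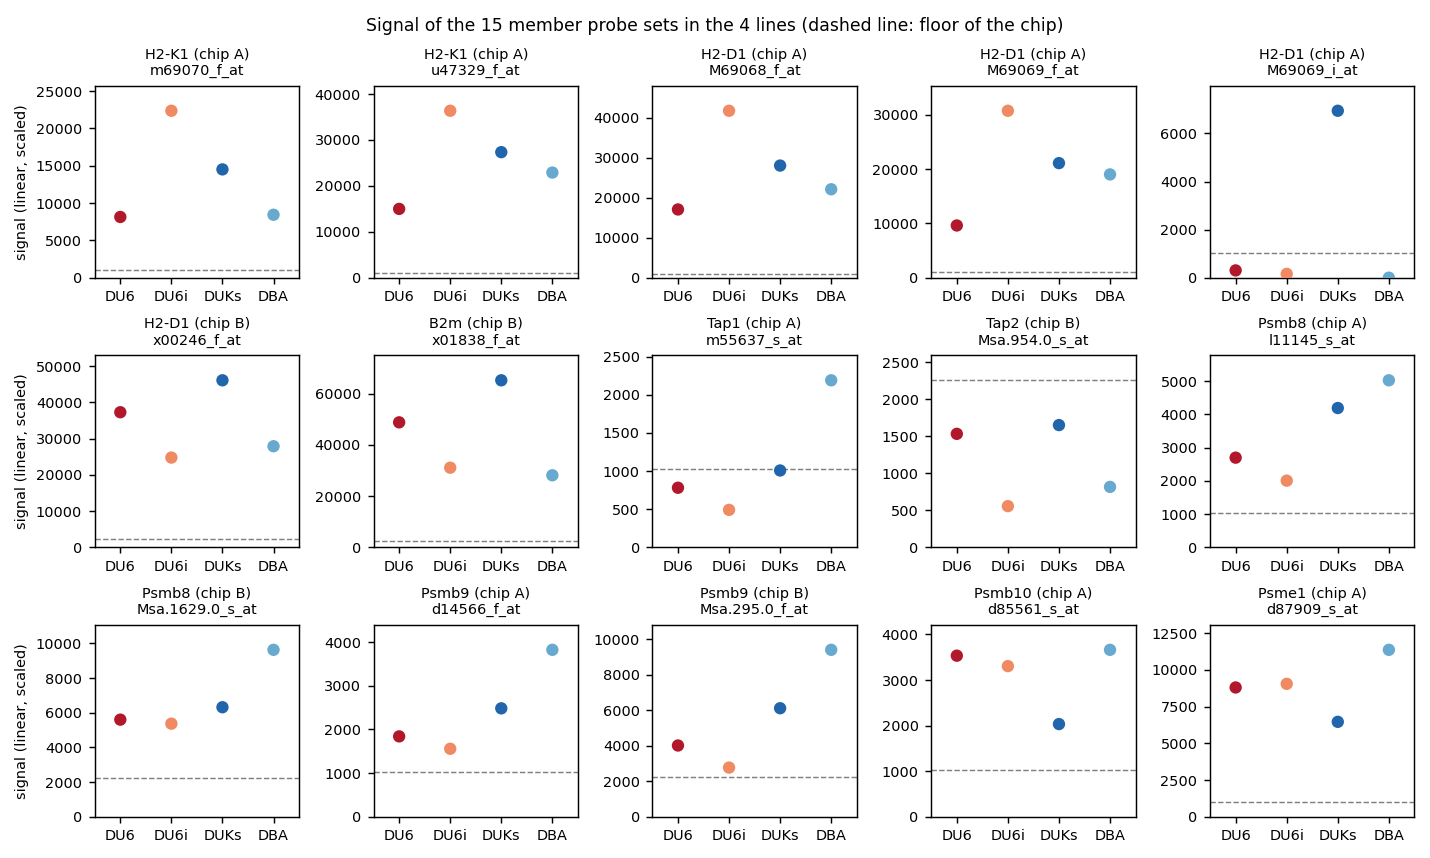
Linear scaled signal (vertical axis, from 0) of each of the 15 probe sets in DU6, DU6i, DUKs and DBA, 1 point per pool. The dashed line is the chip's floor. All 4 panels of Psmb8 and Psmb9 fall in the order DBA, DUKs, DU6, DU6i, whereas the 4 heavy chain panels of chip A whose names end in _f_at have DU6i highest and DU6 lowest. M69069_i_at is above the floor in DUKs only.

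The immunoproteasome subunits Psmb8 and Psmb9 were lower in both DU6 lines than in DUKs and DBA, on both chips. Psmb8 gave 2696.5 in DU6 and 2004.5 in DU6i, against 4190.7 in DUKs and 5025.7 in DBA, with the chip A probe set l11145_s_at. The chip B probe set of Psmb8 gave 5599.6 in DU6 and 5367.0 in DU6i, against 6316.1 in DUKs and 9625.3 in DBA. On both chips the DU6 lines were below the other lines without overlap, but on chip B DU6, DU6i and DUKs lay close together and DBA stood above them. Psmb9 gave 1839.7 in DU6 and 1556.4 in DU6i, against 2481.7 in DUKs and 3821.1 in DBA, with the chip A probe set d14566_f_at. Its chip B probe set gave 4019.4 in DU6 and 2774.0 in DU6i, against 6121.6 in DUKs and 9415.5 in DBA. DBA was highest, then DUKs, then DU6, and DU6i was lowest in all 4 probe sets.

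The distance between the lines differed from pair to pair. Genes that 2 or more probe sets measured over the floor in both lines gave a yardstick: the SD of a single log2 ratio was 0.46 for DU6 over DUKs (387 genes) and 0.38 for DU6i over DBA (383 genes), which covers probe sets and chips but not animals or pools. In DU6i over DBA the log2 ratios were -1.33 and -0.84 for Psmb8 and -1.30 and -1.76 for Psmb9 (chip A, then chip B), all more than 2 of these SDs below 0, and DU6i was lower by 1.79-fold to 3.39-fold. Doubling the floor brought Psmb9 in this pair to -0.90 on chip A and -1.06 on chip B. In DU6 over DUKs they were -0.64 and -0.17 for Psmb8 and -0.43 and -0.61 for Psmb9. Of these, Psmb8 on chip A and Psmb9 on chip B were beyond the yardstick and the other 2 were within it. DU6 over DU6i gave 0.06 to 0.54 over the 4 probe sets, of which only Psmb9 on chip B, at 0.54, was beyond the SD of 0.52, so that the order of DU6 and DU6i is not resolved for the other 3. DUKs over DBA gave -0.26 to -0.62, beyond the SD of 0.42 for all but Psmb8 on chip A.

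The pairs with like pyruvate carboxylase shares were DU6 over DBA and DU6i over DUKs. DU6 over DBA gave log2 ratios of -0.78 to -1.23 for the 4 probe sets, and DU6i over DUKs -0.23 to -1.14. The largest in DU6i over DUKs, for Psmb9 on chip B, was -0.44 with the floor doubled. The smallest, -0.23 for Psmb8 on chip B, was within the yardstick of 0.42. The part of the control signal in these ratios was not tested. After quantile normalisation DBA was still highest and both DU6 lines lowest in all 4 probe sets. Rescaling to one trimmed mean is no check of this, since the deposited arrays already share one. With DU6 and DU6i on one side and DUKs and DBA on the other, Psmb8 on chip A averaged 11.18 in the DU6 lines and 12.16 in DUKs and DBA (log2 signal), and limma estimated a difference of -0.98 (SE 0.30, unadjusted p = 0.0165, adjusted p = 0.978). For Psmb9 limma gave -1.19 on chip B (SE 0.38, unadjusted p = 0.0250, adjusted p = 0.990) and -0.86 on chip A (SE 0.33, unadjusted p = 0.0369, adjusted p = 1.0). Psmb8 on chip B had -0.51 by limma (SE 0.34, unadjusted p = 0.197, adjusted p = 1.0). No difference passed the adjustment over all 5267 probe sets, so the lower levels of Psmb8 and Psmb9 are a description of these 4 pools.

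Marker levels of other cell types differed between the lines as well, given as sums of the signals above the floor. Epididymal and accessory gland markers, 7 of 10 with a probe set, summed to 117188 in DU6 and 12702.4 in DU6i, against 126545 in DUKs and 184997 in DBA. The order of lines was the same, but the sums rest on 3 genes in DU6, 2 in DU6i, 4 in DUKs and 6 in DBA. Gene by gene, 1 was higher and 3 lower in DU6 over DUKs, and 0 higher and 6 lower in DU6i over DBA. DUKs over DBA gave 3 higher and 4 lower. Germ cell markers (8 of 9) were lower in both DU6 lines as well. Lymphocyte markers, 13 of 17 with a probe set, summed to 3185.4 in DU6 and 4386.9 in DU6i, against 8024.1 in DUKs and 4895.6 in DBA, while 9 of them, among these Cd3d, Cd3g, Cd4, Cd8a and Cd79a, were at or under the floor in every line. These sums rest on 1 gene in DU6 and 3 in DU6i, against 2 in DUKs and 3 in DBA. Gene by gene, 0 were higher and 2 lower in DU6 over DUKs, and 2 higher and 2 lower in DU6i over DBA. Macrophage markers, 11 of 12 with a probe set, ran the other way, with 115015 in DU6 and 123378 in DU6i, against 92707.8 in DUKs and 77698.5 in DBA. Endothelial markers, 8 of 8 with a probe set, also ran the other way, with 75966.7 in DU6 and 75631.3 in DU6i, against 56058.5 in DUKs and 60171.8 in DBA. The part of these cell types in the levels of Psmb8 and Psmb9 was not tested.

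Psmb10 and Psme1 did not follow Psmb8 and Psmb9. Psmb10, the remaining catalytic subunit of the immunoproteasome, gave 3534.7 in DU6 and 3305.4 in DU6i, against 2033.8 in DUKs and 3663.1 in DBA. Only DUKs stood apart, below the other 3 lines: the log2 ratio was 0.80 in DU6 over DUKs, 0.70 in DU6i over DUKs and -0.85 in DUKs over DBA, but -0.15 in DU6i over DBA. Psme1, a subunit of the activator ring, gave 8804.5 in DU6 and 9052.3 in DU6i, against 6464.6 in DUKs and 11368.9 in DBA. DBA was highest and DUKs lowest. The log2 ratio was -0.81 in DUKs over DBA and 0.49 in DU6i over DUKs, each beyond the yardstick of its pair (both 0.42), and the other pairs were within theirs. By limma neither gene separated the sides, with a log2 difference of 0.32 (SE 0.36, adjusted p = 1.0) for Psmb10 and 0.06 (SE 0.35, adjusted p = 1.0) for Psme1.

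The constitutive core particle was not lower in the DU6 lines as a group. Of its 14 alpha and beta subunits 12 had a probe set, all above the floor in every line. In DU6 over DUKs 11 were higher and 1 lower, none of them by 2-fold, and the median log2 ratio was 0.08, against 0.05 over all 5604 probe sets measured in that pair. In DU6i over DBA 7 were higher and 5 lower, with a median of 0.09 against -0.03 over all 5556. Psma7 at -0.88, Psmb4 at -0.79, Psma5 at -0.63 and Psma2 at -0.51 were lower beyond the yardstick of 0.38. DBA was the highest line for each of these, and Psma7 and Psmb4 were near Psmb8 on chip B (-0.84). Psma4 at 0.61, Psma3 at 0.40 and Psmb6 were higher beyond the yardstick. Psmb6, the constitutive partner of Psmb9, had the largest ratio and was 4.39-fold higher in DU6i than in DBA. It gave 14219.9 in DU6 and 15925.9 in DU6i, against 13800.6 in DUKs and 3625.0 in DBA. DBA was thus the low line for Psmb6 and the high line for Psmb9. The Psmb6 values come from 1 probe set, u13393_s_at on chip A, in which DBA alone stood apart. Line-specific sequence and transcript level cannot be told apart from it. Psmb7, the partner of Psmb10, gave 6125.4 in DU6 and 6012.9 in DU6i, against 5007.9 in DUKs and 5972.3 in DBA. Its DUKs level was the lowest, as for Psmb10, but its log2 ratio of 0.29 in DU6 over DUKs was within the yardstick. Psmb5, the partner of Psmb8, had no probe set annotated to it alone.

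**Figure D2:**
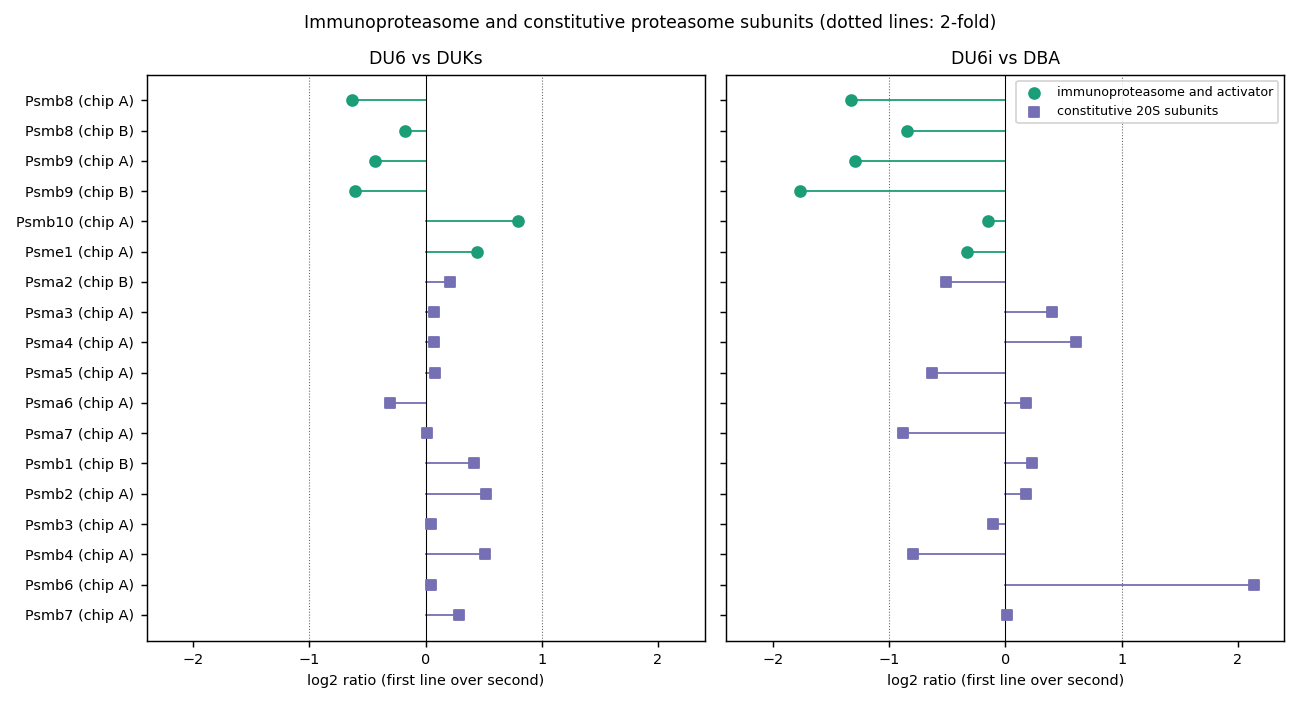
Log2 ratios (horizontal axis, first line over second) of the immunoproteasome and activator probe sets (circles) and of 12 constitutive subunits (squares) in DU6 over DUKs (left) and DU6i over DBA (right). Dotted lines mark 2-fold. Psmb8 and Psmb9 lie left of 0 in both panels, the constitutive subunits lie on both sides of 0, and Psmb6 stands out at 2.14 in DU6i over DBA.

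The peptide transporter was near the limit of the arrays. Tap1, the neighbour of Psmb9 and Psmb8, gave 780.9 in DU6 and 490.4 in DU6i, against 1007.5 in DUKs and 2191.4 in DBA. DBA alone was above the chip A floor, and DU6, DU6i and DUKs were each at least 2.14-fold lower, a bound set by the floor: with the floor doubled it shrank to a log2 ratio of -0.10. The 3 lines under the floor have no order among themselves. Tap2, the other transporter subunit, gave 1533.9 in DU6 and 555.8 in DU6i, against 1652.4 in DUKs and 816.1 in DBA. All 4 signals were under the chip B floor, so Tap2 was not measured in any line at this sensitivity.

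The heavy chains gave strong signals, whose order depended on the chip. H2-K1 gave 8139.5 in DU6 and 22372.0 in DU6i, against 14514.3 in DUKs and 8434.4 in DBA, with the chip A probe set m69070_f_at. Its other chip A probe set, u47329_f_at, gave 14987.7 in DU6 and 36366.6 in DU6i, against 27346.7 in DUKs and 22902.2 in DBA. The DU6 lines bracketed the other lines in both, with DU6i highest and DU6 lowest. H2-D1 gave 17076.8 in DU6 and 41779.4 in DU6i, against 28065.5 in DUKs and 22132.2 in DBA, with M69068_f_at on chip A. With M69069_f_at, also on chip A, it gave 9610.5 in DU6 and 30721.9 in DU6i, against 21084.7 in DUKs and 19005.6 in DBA. All 4 of these probe sets ranked the lines DU6i, DUKs, DBA, DU6. The H2-D1 probe set of chip B, x00246_f_at, gave 37302.2 in DU6 and 24775.8 in DU6i, against 46127.7 in DUKs and 27907.4 in DBA, so that DU6i was highest on chip A and lowest on chip B.

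In log2 ratios, these 4 chip A probe sets lay between -0.72 and -1.13 in DU6 over DUKs and between 0.67 and 1.41 in DU6i over DBA. DU6 over DU6i gave -1.28 to -1.68, or DU6 lower by 2.43-fold to 3.20-fold. After quantile normalisation, which gives all arrays of a chip the same range, this pair gave -0.42 for M69068_f_at, -0.60 for u47329_f_at, -1.31 for m69070_f_at and -1.35 for M69069_f_at. The chip B probe set of H2-D1 gave -0.31 in DU6 over DUKs, -0.17 in DU6i over DBA and 0.59 in DU6 over DU6i. In DU6i over DUKs H2-D1 gave 0.57 and 0.54 with the chip A probe sets ending in _f_at and -0.90 on chip B, and in DU6 over DBA -0.37 and -0.98 on chip A and 0.42 on chip B. The mean ratio of the H2-D1 family probe sets on chip A minus that on chip B was -2.07 in DU6 over DU6i, a difference exceeded in size by 6 of the 125 genes with probe sets on both chips, and 0.98 in DU6i over DBA, exceeded by 5 of 127. Psmb9 on the chips differed by -0.29 and 0.47 in the same pairs, exceeded by 76 and 47 genes. The family probe sets of the chips thus gave opposite signs for H2-D1 in DU6 over DU6i, DU6i over DBA, DU6i over DUKs and DU6 over DBA, and its direction in these pairs is not settled by these arrays.

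The suffix of the probe set names bears on what was measured. By Affymetrix convention _f marks probe sets whose probes fit several members of a sequence family, and 8 of the 15 probe sets, among them 5 of the 6 for heavy chains, carry it. Signals named for H2-K1 or H2-D1 may thus come from either gene or from related class I genes. Both Psmb9 probe sets and the B2m probe set carry the suffix as well, and their signals may likewise include related transcripts. The sixth heavy chain probe set, M69069_i_at of H2-D1, gave 303.5 in DU6 and 158.7 in DU6i, against 6945.3 in DUKs and 0.1 in DBA. It was above the floor in DUKs alone, at least 6.79-fold over each of the other lines (a log2 ratio of 2.76 over DBA, or 1.76 with the floor doubled), although M69069_f_at, named for the same sequence, was far above the floor in all 4. Line-specific sequence and transcript level cannot be told apart from these signals.

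**Figure D3:**
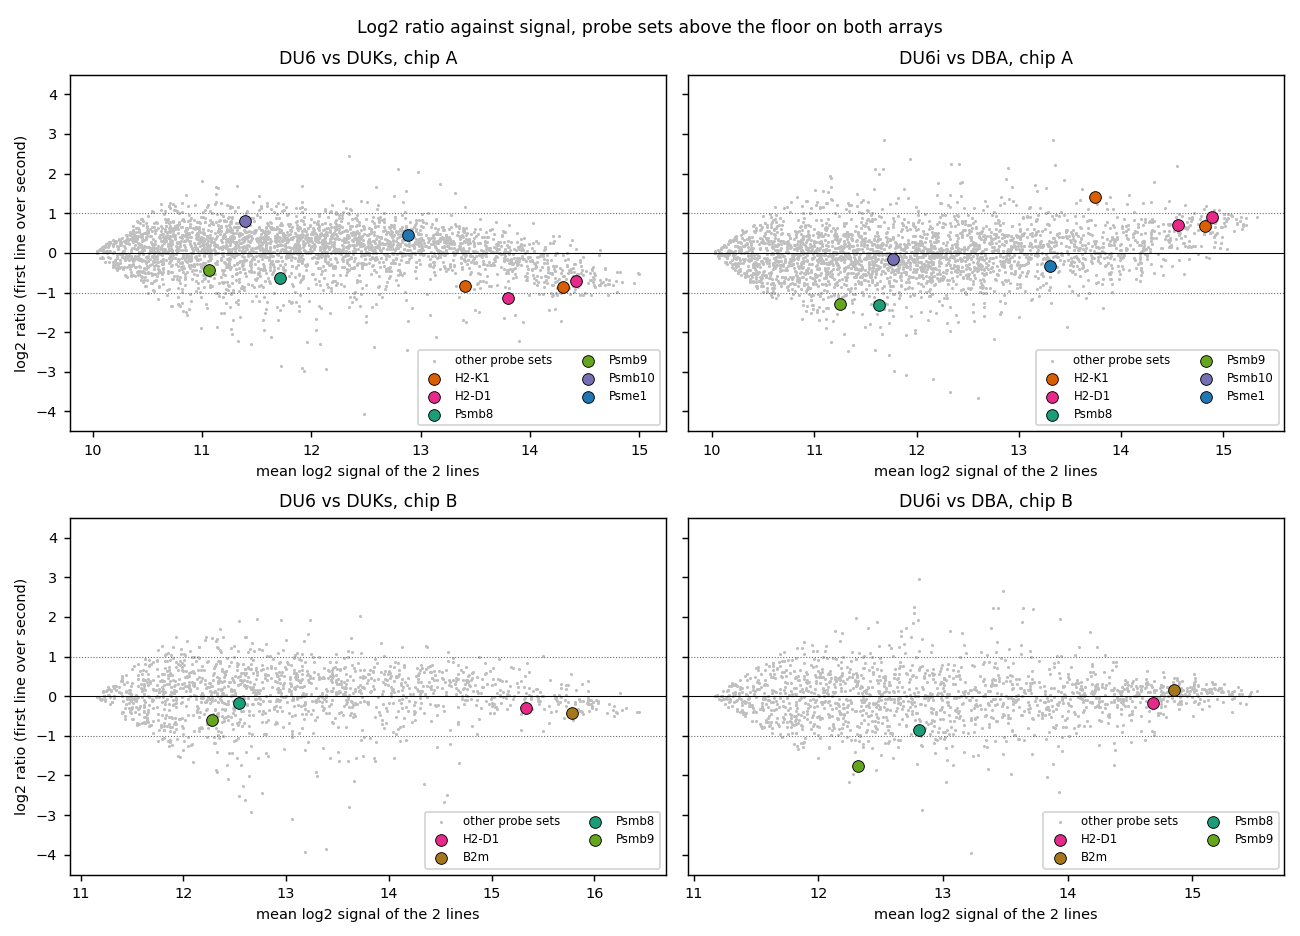
Log2 ratio (vertical axis, first line over second) against mean log2 signal of the pair's lines (horizontal axis) for probe sets over the floor in both lines, with DU6 over DUKs on the left, DU6i over DBA on the right, chip A above and chip B below. Grey points are other probe sets and dotted lines mark 2-fold. On chip A the brightest points bend below 0 in DU6 over DUKs and above 0 in DU6i over DBA, and H2-K1 and H2-D1 lie in the bent part, while Psmb8 and Psmb9 lie among the dimmer points.

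The order of lines in the 4 chip A heavy chain probe sets ending in _f_at was also that of the 99th percentiles of the arrays. Among the 499 chip A probe sets with a mean signal over 10000, 142 (28.5%) had the order DU6i, DUKs, DBA, DU6, the most frequent of the 24 possible orders. The median log2 ratio of these 499 was -0.18 in DU6 over DUKs, 0.26 in DU6i over DBA and -0.36 in DU6 over DU6i, the same signs as the heavy chains with smaller sizes. After quantile normalisation M69068_f_at gave -0.25 in DU6 over DUKs and 0.28 in DU6i over DBA, and u47329_f_at gave -0.52 and 0.07. M69069_f_at then gave -1.12 and 0.27, and m69070_f_at -0.93 and 1.14. All 4 probe sets kept their sign in these 2 pairs, but only m69070_f_at moved by less than the yardstick in both. Adipocyte markers summed to 94123.4 in DU6 and 247610 in DU6i, against 161712 in DUKs and 124652 in DBA, again the same order. The pyruvate carboxylase shares were high in DU6i and DUKs. The part of signal range, control signal and adipocyte transcripts in the heavy chain result was not tested.

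B2m, the light chain shared by all class I heavy chains, gave 48806.1 in DU6 and 31078.8 in DU6i, against 65238.0 in DUKs and 28115.8 in DBA with x01838_f_at on chip B. DU6 and DUKs were above DU6i and DBA, a split whose share over all probe sets was not counted. Log2 ratios were 0.65 in DU6 over DU6i, 1.21 in DUKs over DBA, -0.42 in DU6 over DUKs and 0.14 in DU6i over DBA, the last 2 within the yardstick. Its order, DUKs, DU6, DU6i, DBA, was the most frequent among the 627 bright probe sets of chip B, at 76 (12.1%). It was also the order of the 99th percentiles of the chip B arrays, and the part of signal range in the B2m values was not tested. Quantile normalisation brought DUKs over DBA to 0.67 and DU6 over DU6i to 0.24, the latter under the yardstick of 0.52 for that pair. For the heavy chains and B2m limma gave adjusted p = 1.0 between the sides in each of the 6 probe sets tested.

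Counts over all 15 probe sets mix these patterns. In DU6 over DUKs 13 were measured, 2 higher and 11 lower, with 2, M69069_f_at and M69069_i_at of H2-D1, lower by 2-fold or more and 0 higher. Of all probe sets 6.3% were lower and 3.91% higher by that rule of size. The members' median was -0.61, against 0.05 over all. In DU6i over DBA 13 were measured, 5 higher and 8 lower, 1 higher and 4 lower by 2-fold or more (4.79% and 6.68% of all). The higher one was m69070_f_at of H2-K1 and the lower ones Tap1, Psmb8 on chip A and both Psmb9 probe sets. The median was -0.17, against -0.03 over all. Several probe sets measure 1 gene, and those of the heavy chains can bind related transcripts, so the probe sets are not independent.

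The other pairs use the same 8 arrays again. DU6 over DU6i gave 7 higher and 5 lower of 12, and 4, the chip A heavy chain probe sets ending in _f_at, lower by 2-fold or more, with 0 higher. Of all probe sets 5.7% were lower and 4.8% higher in this pair. DUKs over DBA gave 7 higher and 7 lower of 14, with 2 higher (B2m and M69069_i_at, 6.01% of all) and 1 lower (Tap1, 5.29% of all) by 2-fold or more. DU6 over DBA gave 2 higher and 11 lower of 13, with 3 lower by 2-fold or more (4.17% of all, with 3.79% higher), the Psmb9 probe sets and Tap1. DU6i over DUKs gave 6 higher and 7 lower of 13, with 4 lower by 2-fold or more (6.76% of all, with 3.39% higher), namely B2m, M69069_i_at, Psmb8 on chip A and Psmb9 on chip B. Of the 14 probe sets above the floor somewhere, DBA was highest in 7, DU6i in 4, DUKs in 3 and DU6 in 0.

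**Figure D4:**
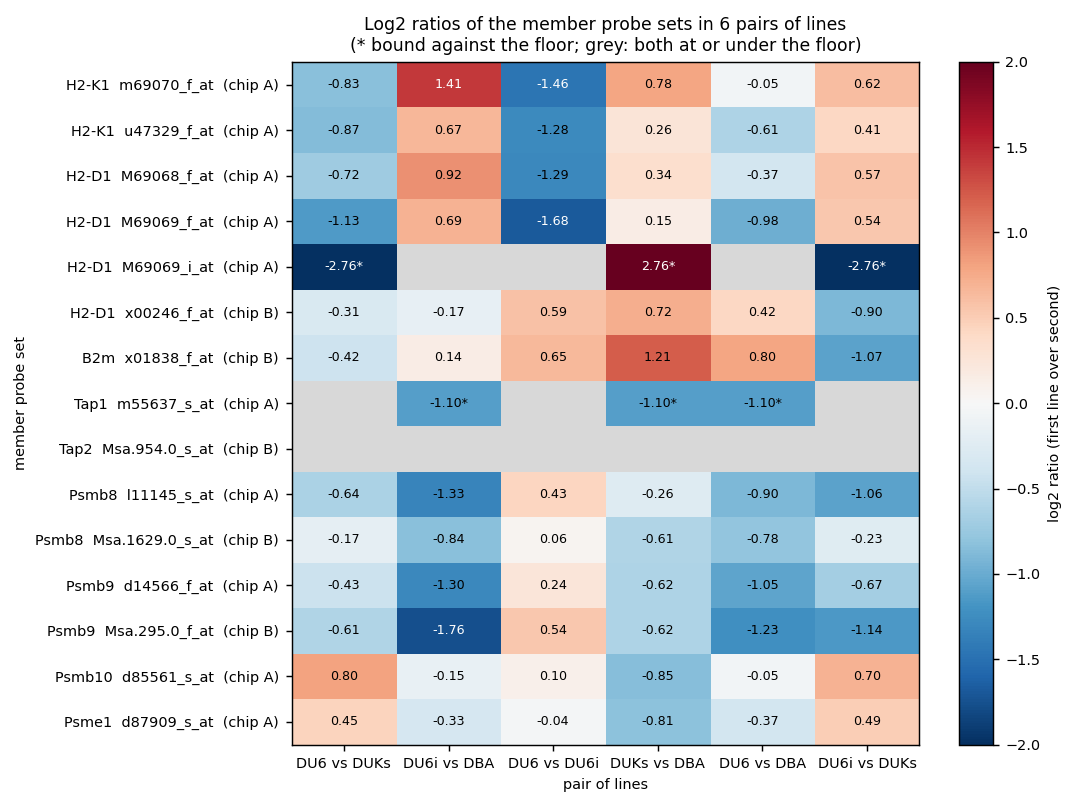
Log2 ratios (first line over second, red higher and blue lower, colours capped at 2) of the 15 probe sets in 6 pairs of lines. An asterisk marks a bound against the floor and grey a pair with both signals at or under it. The 4 chip A heavy chain probe sets ending in _f_at change sign from DU6 over DUKs to DU6i over DBA, and Psmb8 and Psmb9 are negative in both.

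For DU6 and DU6i against DUKs and DBA, limma called 0 of 5267 probe sets (0%) at an adjusted p under 0.05, the smallest adjusted p being 0.829, and 252 (4.78%) at an unadjusted p under 0.05. Of the 12 member probe sets tested, 0 passed the adjustment and 3 were under 0.05 without it. That count of 3 was 2 without DU6, 1 without DU6i, 2 without DUKs, 0 without DBA and 1 with the floor doubled. In 4 of the 12 the sides did not overlap, all with both DU6 lines below. Of all tested probe sets 30.1% did not overlap, 13.3% with both DU6 lines below and 16.8% with both above. The 4 member probe sets are those of Psmb8 and Psmb9, so they stand for 2 genes and are not independent. The spread in this fit is that between lines, DU6i derives from DU6, and the smallest p that an exact, 2-sided permutation of the line labels allows is 0.333.

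Genes around the pathway were taken as lists. The peptide loading genes with a probe set, Tapbp, Calr, Canx, Pdia3 and Hspa5, included none at 2-fold in either main pair. Tapbp, the bridge between the transporter and the heavy chain, gave 14878.2 in DU6 and 28503.6 in DU6i, against 24827.4 in DUKs and 20800.1 in DBA. Its order was that of those 4 heavy chain probe sets of chip A. Calr, Canx, Pdia3 and Hspa5 had other orders, each with DU6i lowest. In DU6 over DU6i 4 of the peptide loading genes were higher and 1, Tapbp, was lower. Of 24 other class I and class I-like genes 5 were above the floor, 4 higher and 1 lower in DU6 than in DUKs and 3 higher and 2 lower in DU6i than in DBA. Hfe, a class I-like regulator of iron uptake, gave 8183.4 in DU6 and 8227.1 in DU6i, against signals under the floor in DUKs (1232.4) and DBA (1922.1), at least 3.62-fold and 3.64-fold higher in the main pairs. Cd1d1, which presents lipids, gave 7662.8 in DU6 and 5103.3 in DU6i, against 3588.0 in DUKs and 3334.7 in DBA. Both were higher in the DU6 lines without overlap, opposite to Psmb8 and Psmb9. Of the 5267 probe sets that limma tested, 16.8% had both DU6 lines above DUKs and DBA. Hfe and Cd1d1 were also named for passing 2-fold in a main pair.

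Interferon-induced genes were mostly lower in DU6 than in DUKs and in DU6i than in DBA, but several by less than the yardstick. Of 30 listed 13 were above the floor somewhere: 12 of 13 were lower in DU6 than in DUKs (median log2 ratio -0.36, against 0.05 over all) and 7 of 9 measured were lower in DU6i than in DBA (median -0.36, against -0.03 over all), ratios against the floor included. Beyond the yardstick of 0.46 in DU6 over DUKs were Ifi27, Iigp1, Igtp, Irgm1 and Ly6e, all lower. Beyond that of 0.38 in DU6i over DBA were Iigp1, Igtp, Gbp3 and Ifit3, lower, and Ifi27 and Ly6e, higher. The direction of the remaining genes in these pairs is not resolved. DU6 over DBA gave 5 higher and 6 lower of 11, and DUKs over DBA 10 higher and 3 lower of 13. At 2-fold or more 2 were lower in each of the main pairs, and 1 was higher in DU6i than in DBA. Iigp1, an interferon-gamma-induced GTPase, gave 2056.1 in DU6 and 1258.3 in DU6i, against 5268.4 in DUKs and 9845.4 in DBA, the same order of lines as Psmb8 and Psmb9. Igtp, of the same family, was under the floor in DU6 and DU6i, against 1935.8 in DUKs and 2439.0 in DBA. Ifi27 gave 3127.3 in DU6 and 44632.6 in DU6i, against 33667.3 in DUKs and 21161.0 in DBA. Against DUKs the DU6 level was 10.8-fold lower, and against DBA the DU6i level was 2.11-fold higher.

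Of the interferon signalling genes, Irf1, a transcription factor of the class I and immunoproteasome genes, gave 5066.9 in DU6 and 3984.0 in DU6i, against 5241.8 in DUKs and 8246.8 in DBA. It was 2.07-fold lower in DU6i than in DBA, with DU6 and DUKs nearly level. Ifngr1, the ligand-binding chain of the interferon-gamma receptor, gave 6114.4 in DU6 and 7809.5 in DU6i, against 4156.4 in DUKs and 2828.9 in DBA, the reverse direction. The 9 genes measured in DU6i over DBA were 5 higher and 4 lower, with a median of 0.02. Of the class II genes next to Psmb9, H2-DMb1, a chain of the peptide exchanger, gave 4577.3 in DU6 and 3270.3 in DU6i, against 1323.7, under the floor, in DUKs and 3072.5 in DBA. Its order thus differed from that of Psmb9 although the genes are neighbours. Of its log2 ratios, 0.58 in DU6 over DBA was beyond the yardstick of 0.41. The ratios of 0.49 in DU6 over DU6i and 0.09 in DU6i over DBA were within theirs. In the class II list as a whole 4 genes were higher and 2 lower in each main pair, and H2-Eb1 and H2-Ea were at least 5.44-fold and 8.38-fold lower in DU6i than in DBA. H2-Eb1 was under the floor in both DU6 lines, against 8626.5 in DUKs and 12279.2 in DBA, and at least 3.82-fold lower in DU6 than in DUKs.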

How the data were processed

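Epididymal fat RNA of 4 mouse lines was measured on 8 Affymetrix arrays, 1 pool of 20 males per line on each of 2 chips. Per the labels, the authors computed signals with Data Mining Tool 1.2 and Microarray Suite 4.0.1 and scaled every array over all probe sets. As deposited, the intensity values are on a linear scale, and 12.8% to 30.5% of an array's values are below 0. The trimmed mean (percentiles 2 to 98) was 2500 on each array. Detection calls were not used here, and 55 control probe sets per chip were left out.

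Probe sets were named from the platform annotation: 5560 on chip A and 2001 on chip B had 1 symbol, 197 and 27 had several, and 827 and 4567 were unnamed here. Of the 7561 named ones, 7544 matched a gene in the mouse gene table by Entrez identifier, and 0 symbols changed. The negative signals of a chip set its floor, at percentile 95 of their sizes. Signals were raised to the floor before log2, and a probe set entered a pair if at least 1 of the 2 arrays was above it. An array had 3045 to 3334 probe sets over it on chip A, and 1639 to 1823 on chip B. Pairs of lines have no test, and 2-fold is a rule of size. The authors' labels give no replicate pool. Lines served as replicates in limma 3.58.1 (R 4.3.3) for DU6 and DU6i against DUKs and DBA, chips fitted separately, Benjamini-Hochberg over both, using probe sets that exceeded the floor on 2 or more arrays. That code was tested on simulated data.

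Named genes were all members with every probe set, from the other lists at most 5 genes per list and main pair that passed 2-fold, Psmb5, Psmb6 and Psmb7, and the 5 genes nearest in profile. H2-Eb1, H2-Ea, Ifi27 and the others of these lists follow that rule, while Tapbp was named after its values were seen. So were the other core subunits and interferon-induced genes that are named as beyond the yardstick. For list genes the probe set with the highest mean signal was used. The members and lists were chosen with earlier results of these data known. Alternatives covered scaling, floor, fold rule, filter and leaving out a line.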

Additional observations from a re-analysis of the deposited data

Results flagged for a closer look

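The 4 chip A heavy chain probe sets whose names end in _f_at went opposite ways in the main pairs, each time by more than the technical SD of a ratio, and the difference between the pairs was not tested. For H2-K1 the log2 ratio was -0.83 in DU6 over DUKs and 1.41 in DU6i over DBA with m69070_f_at, and -0.87 and 0.67 with u47329_f_at. For H2-D1 it was -0.72 and 0.92 with M69068_f_at, and -1.13 and 0.69 with M69069_f_at. The chip B probe set of H2-D1 gave -0.31 and -0.17, without opposite signs. The brightest probe sets of chip A had medians of -0.18 and 0.26 in these pairs, and the part of signal range in the flagged values was not tested.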

How the results depend on the processing

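Each array stands for 1 pool, so no value here has an error between pools, and signals under the floor limit Tap1, Tap2 and M69069_i_at to bounds or to no value. No paired analysis was possible because each line has 1 pool per chip and the labels number no replicates. With 1.5-fold in place of 2-fold, the count of member probe sets beyond the rule was 8 for DU6 over DUKs (2 at 2-fold), 9 for DU6i over DBA (5), 10 for DUKs over DBA (3), 8 for DU6 over DBA (3) and 8 for DU6i over DUKs (4). With the floor doubled it was 3 for DU6i over DBA and 1 for DU6 over DBA. With log2(signal + floor) it was 3 for DU6i over DBA, 0 for DU6 over DBA and 2 for DU6i over DUKs. After quantile normalisation it was 2 for DU6 over DU6i (4 as deposited) and 2 for DU6i over DUKs. The fit by limma without a filter called 5 of 13069 probe sets, 0 of them members, with most residual variances at 0. Every other fit called 0, including those that left out a line (lowest 0, highest 0). Of 388 single ratios under 5 settings, 364 moved by less than the technical SD and 24 by more: 9 with the floor doubled, 8 after quantile normalisation, 4 with the floor halved, 3 with log2(signal + floor) and 0 after rescaling, which changes nothing because the arrays already share a trimmed mean. Halving or doubling the floor likewise cannot move a ratio whose signals both exceed the old and the new floor. Many of the 364 were therefore fixed in advance and are no measure of stability. Taking the median of all H2-D1 probe sets in place of the brightest, which is on chip B, moved its ratio to 0.69 from -0.17 in DU6i over DBA, to -1.29 from 0.59 in DU6 over DU6i, to -0.37 from 0.42 in DU6 over DBA, to -0.93 from -0.31 in DU6 over DUKs and to -0.18 from -0.90 in DU6i over DUKs. The bright class over 10000 was chosen after seeing the data.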

Other observations

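The 7 member genes above the floor on all 4 arrays, each by its brightest probe set, had a median centred log2 profile of 0.01 in DU6, -0.28 in DU6i, 0.18 in DUKs and 0.26 in DBA. Among 2610 other named genes the nearest profiles by Euclidean distance were those of Sf3b2 (0.101), Eif2b2 (0.101), Grcc10 (0.115), Snap47 (0.122) and Tmem214 (0.128). Sf3b2, a splicing factor subunit, gave 4441.4 in DU6 and 3809.1 in DU6i, against 5216.1 in DUKs and 5381.3 in DBA. With only 4 lines, many genes lie close to any profile, and the likeness is a description of these pools.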
